A study of Homo sapiens with 6 samples.

Results

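The transcripts of 10 genes that write or read methylation of histone H3 lysine 9 (H3K9) were followed through inhibition of EZH2 in K562 cells. They are the H3K9 methyltransferases *SUV39H1*, *SUV39H2*, *EHMT1*, *EHMT2*, *SETDB1* and *SETDB2*, the heterochromatin protein 1 (HP1) genes *CBX1*, *CBX3* and *CBX5*, and the corepressor gene *TRIM28*. The genes were chosen by symbol through GENCODE names on GRCh38, and all 10 had a row among the 60671 Ensembl genes of the count files. K562 is a human chronic myeloid leukemia line, and the cells of both groups came from 1 clone that makes Lamin B1 fused to Flag, a nuclear localization signal and M.CviPI, a methyltransferase of GpC sites, when given doxycycline. In the DMSO group 3 cultures received vehicle at 0.1% for 72 h, and in the EZH2i group 3 received 1 µM of the EZH2 inhibitor GSK343 for 72 h. Both groups were induced with 1 µg/mL doxycycline for the last 24 h, so cells without the induced fusion are in neither group, and nothing measured here describes another clone or time.

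Methylated H3K9 marks constitutive heterochromatin, the condensed chromatin of repeats, pericentromeres and much of the nuclear periphery. SUV39H1 and SUV39H2 trimethylate H3K9, the EHMT1 and EHMT2 proteins (GLP and G9a) work as a pair that mainly mono- and dimethylates it, and SETDB1 is brought to its targets by TRIM28, the shared corepressor of KRAB zinc finger proteins. HP1 proteins bind the methylated lysine through their chromodomain and recruit further silencing factors. H3K27me3, the mark made by EZH2 in Polycomb repressive complex 2, defines facultative heterochromatin. The study asked how loss of that mark changes the arrangement of heterochromatin, and the comparison below asks whether transcript levels of the H3K9 machinery differed with it.

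Libraries were made from the 3′ ends of polyadenylated RNA, so reads tag transcript ends and counts were not divided by length. No molecular identifiers are named in the sources used here, so several reads may come from the same transcript, and the counting errors below, which treat reads as independent, are lower limits. Reads on genes ranged from 6327544 to 8987768 per library. Reads on no annotated gene made up 7.43% to 8.51% of the listed reads in 5 libraries and 12.7% in EZH2i replicate 3. Expression is given as CPM, the count in parts per 10 to the power 6 after scaling by edgeR's TMM method. It is relative to the library's reads on the 12364 genes past the filter of the test, not to all its reads on genes. Of 8 markers of K562 cells, *HBE1* had 1 to 6 reads per library and the other 7 were tested; *GATA1*, for example, averaged 88.3 CPM. Of 7 markers of other cell types, *MS4A1*, *ALB* and *CD3E* had at most 8 reads in any library, while *CD3D* averaged 75.9 and *EPCAM* 70.7 CPM. Among them *CD3D* and *COL1A1*, and among the K562 markers *HBG2* and *HBZ*, were higher in EZH2i (edgeR, adjusted p = 0.0309, 0.00424, 0.0251 and 6.14e-05). Across the 6 fits that each left out a library, *HBZ* and *COL1A1* stayed past the threshold in 6, *HBG2* in 3 and *CD3D* in 2. The part of these markers in the results below was not tested.

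None of the 10 genes passed the threshold between EZH2i and DMSO, a count near the share called over all genes. By edgeR's quasi-likelihood test 0 were higher and 0 lower at an adjusted p under 0.05, where 4.26% of the 12364 tested genes were called. At an unadjusted p under 0.05 the count was also 0, where 19.1% of all tested genes passed. DESeq2 likewise called 0 of the 10, against 3.02% of the genes it gave an adjusted p, and limma-voom called 0. At an unadjusted p under 0.05, DESeq2 had *CBX3* alone (adjusted p = 0.342), and limma-voom had 0. For 0 of the 10 genes did every library of one group lie on the same side of every library of the other, as happened for 24.5% of all tested genes. The log2 fold changes of EZH2i over DMSO ran from -0.25 for *CBX3* to 0.12 for *SUV39H2*, with 7 above 0, 3 below and a median of 0.039, beside a median of -0.00021 over all tested genes. In bulk RNA, a transcript shared by fewer cells and one at a lower level per cell cannot be told apart.

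The intervals show how large a difference these libraries leave possible. All 10 of the 95% intervals, each taken for its gene alone, included 0 and lay within 1 on the log2 scale. Together they spanned -0.53 to 0.50, or folds of 0.692 to 1.42. They were narrowest for *TRIM28*, 0.43 wide, and widest for *SETDB2*, 0.81 wide, against a median width of 0.64 over all tested genes. Over the 6 libraries *SETDB2* had 476 reads, the fewest of the 10, and *TRIM28* had 9573. *CBX3* had the most, 47868, but an interval 0.56 wide, wider than those of *EHMT1*, *EHMT2*, *SETDB1*, *CBX1*, *CBX5* and *TRIM28*, so width did not follow read number alone. At the lowest library count, counting error was 11.5% for *SETDB2*, 2.74% for *TRIM28* and 1.29% for *CBX3*.

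**Figure D1:**
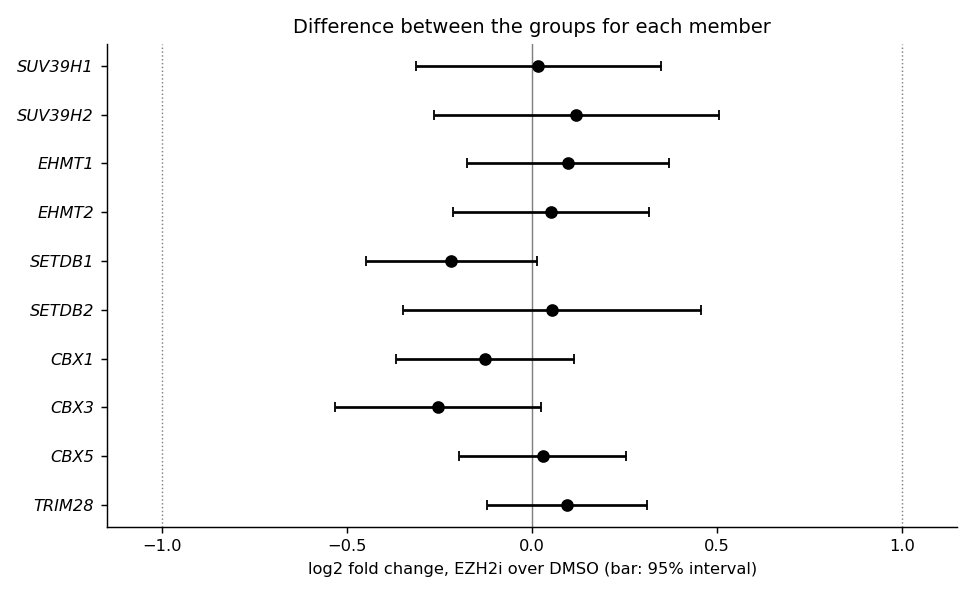
Log2 fold change of EZH2i over DMSO for the 10 genes (points) with 95% intervals (bars) from edgeR's fit of 3 libraries a group; the solid line marks 0 and the dotted lines -1 and 1. Every interval crosses 0 and none reaches a dotted line.

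Of the SUV39 pair, *SUV39H1* (ENSG00000101945; chromosome X, 48695554 to 48709016) was at 17.4, 17.2 and 17.4 CPM in the DMSO libraries (here and below in the order of replicates 1 to 3) and at 20.7, 15.3 and 16.6 in those of EZH2i. EZH2i replicate 1 lay above and the other EZH2i libraries below all of the DMSO libraries. The log2 fold change was 0.017 (standard error 0.158, 95% interval -0.31 to 0.35, edgeR adjusted p = 0.969). *SUV39H2* (ENSG00000152455; chromosome 10, 14878820 to 14904315) was at 16.4, 11.3 and 13.0 CPM in DMSO and 12.3, 16.3 and 15.3 in EZH2i. Its groups covered nearly the same range, and the log2 fold change was 0.12 (standard error 0.182, 95% interval -0.27 to 0.50, edgeR adjusted p = 0.775). Exons of *DCLRE1C*, a DNA repair nuclease gene on the opposite strand, overlap those of *SUV39H2* over 159 bases (log2 fold change of *DCLRE1C* 0.11, edgeR adjusted p = 0.727). Both genes rested on 91 to 153 reads per library.

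For the G9a and GLP pair, the levels of *EHMT1* (ENSG00000181090; chromosome 9, 137618992 to 137870016) were 39.4, 33.1 and 37.9 CPM in DMSO and 37.7, 44.6 and 35.5 in EZH2i. EZH2i replicate 2 was the highest library and DMSO replicate 2 the lowest (log2 fold change 0.097, standard error 0.130, 95% interval -0.18 to 0.37, edgeR adjusted p = 0.742). *EHMT2* (ENSG00000204371; chromosome 6, 31879759 to 31897698) was at 48.0, 52.2 and 57.1 CPM in DMSO and 63.3, 48.0 and 52.0 in EZH2i, with EZH2i replicate 1 alone above the DMSO range. Its log2 fold change was 0.051 (standard error 0.126, 95% interval -0.21 to 0.32, edgeR adjusted p = 0.872).

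*SETDB1* (ENSG00000143379; chromosome 1, 150926263 to 150964744) had the smallest p of the 10 genes in edgeR. Its levels were 71.0, 79.0 and 78.0 CPM in DMSO and 59.6, 65.2 and 71.3 in EZH2i, so that the groups met only where EZH2i replicate 3 exceeded DMSO replicate 1. The mean was 76.0 ± 4.33 CPM for vehicle and 65.4 ± 5.87 for inhibitor (SD, n = 3 each). The log2 fold change of -0.22 (standard error 0.11, 95% interval -0.45 to 0.013) did not pass the threshold (edgeR adjusted p = 0.288). It ran from -0.28 without EZH2i replicate 3 to -0.15 without EZH2i replicate 1. Exons of *CERS2*, a ceramide synthase gene on the opposite strand, overlap those of *SETDB1* over 948 bases, and the strand setting of the counting is not given in the sources used here. *CERS2* had a log2 fold change of -0.27 (edgeR adjusted p = 0.257). *SETDB2* (ENSG00000136169; chromosome 13, 49444274 to 49495003), a SET domain relative of *SETDB1*, was at 12.5, 9.85 and 8.62 CPM in DMSO and 10.4, 10.6 and 10.9 in EZH2i. All EZH2i libraries fell inside the DMSO range (log2 fold change 0.054, standard error 0.191, 95% interval -0.35 to 0.46, edgeR adjusted p = 0.914).

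Of the HP1 genes, *CBX3* (HP1γ; ENSG00000122565; chromosome 7, 26201162 to 26213607) had the most reads of the 10. It was at 1131, 941 and 1309 CPM in DMSO and 820, 1115 and 900 in EZH2i, with an SD of 16.3% of the DMSO mean and 16.1% of the EZH2i mean (n = 3 libraries per group). Averaged over genes, replicate pairs differed by 4.56 to 12.7 times the counting variance (chi-square per degree of freedom). This average does not show how many genes spread beyond counting error. The groups overlapped, since EZH2i replicate 2 lay above DMSO replicate 2, and the log2 fold change of -0.25 (standard error 0.132, 95% interval -0.53 to 0.024, edgeR adjusted p = 0.304) did not pass the threshold. The value rested on single libraries: it was -0.39 without EZH2i replicate 2 and -0.37 without DMSO replicate 2, but -0.13 without DMSO replicate 3 and -0.16 without EZH2i replicate 1, with adjusted p from 0.143 to 0.689 over the 6 edgeR fits that each left out a library.

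*CBX1* (HP1β; ENSG00000108468; chromosome 17, 48070052 to 48101478) was at 84.9, 99.9 and 82.4 CPM in DMSO and 75.4, 90.7 and 78.5 in EZH2i, with replicate 2 the highest of each group. Its log2 fold change was -0.13 (standard error 0.114, 95% interval -0.37 to 0.11, edgeR adjusted p = 0.595). *CBX5* (HP1α; ENSG00000094916; chromosome 12, 54230942 to 54280133) was at 200.0, 199 and 186 CPM in DMSO and 220.0, 175 and 201 in EZH2i. The EZH2i libraries lay on both sides of the DMSO range, and the log2 fold change was 0.028 (standard error 0.107, 95% interval -0.20 to 0.25, edgeR adjusted p = 0.92).

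*TRIM28* (KAP1; ENSG00000130726; chromosome 19, 58544064 to 58550722) was at 208, 209 and 190 CPM in DMSO and 207, 205 and 237 in EZH2i. EZH2i replicate 3 alone was above the DMSO range. The log2 fold change was 0.095 (standard error 0.103, 95% interval -0.12 to 0.31, edgeR adjusted p = 0.666).

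**Figure D2:**
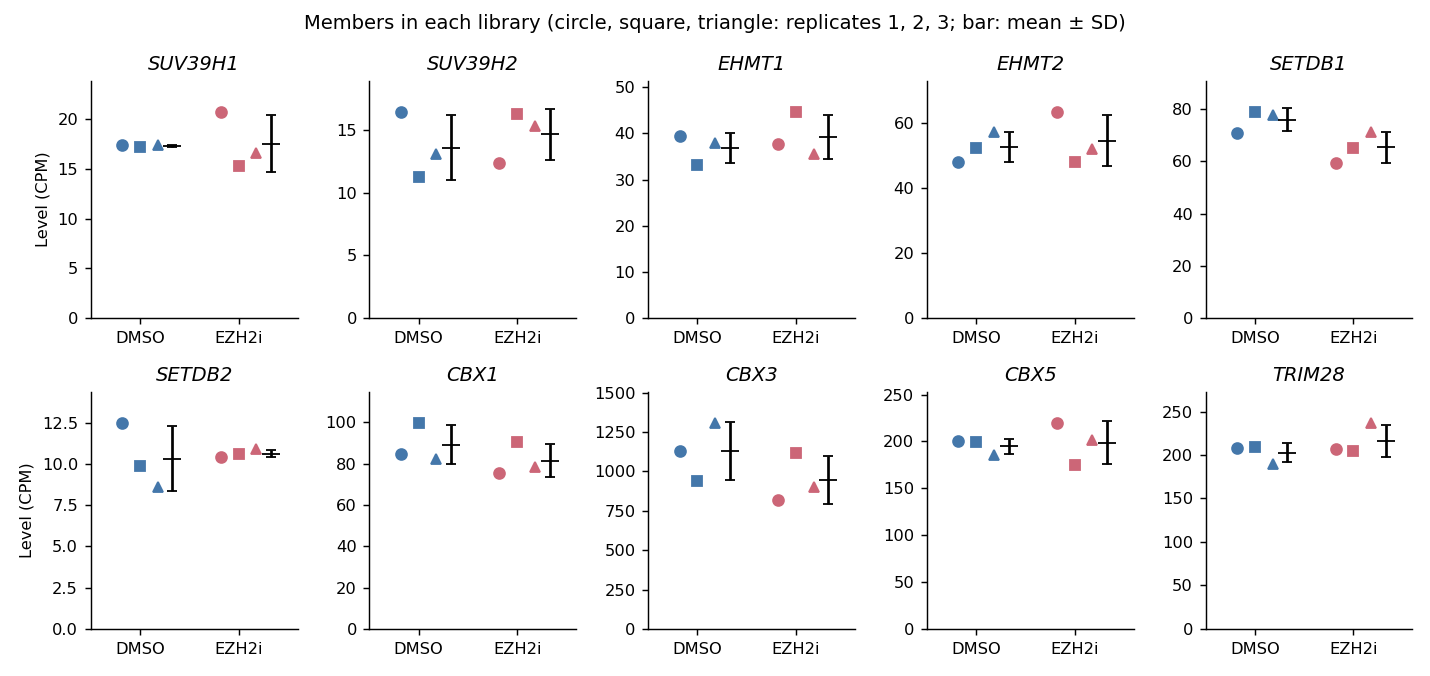
Level of each of the 10 genes in CPM (linear axes from 0, a scale for each gene) in the 3 DMSO and 3 EZH2i libraries; symbols mark replicates 1, 2 and 3, and the bar beside each group is the mean ± SD. In all 10 panels the points of the groups overlap.

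Between libraries, EZH2i replicate 1 held the extremes most often. It had the highest level of *SUV39H1*, *EHMT2* and *CBX5* and the lowest of *SETDB1*, *CBX1* and *CBX3*, 6 of the 10 genes. Over all tested genes this library held the highest or lowest level for 48.1%, and the other libraries did so for 25.3% to 34.9%. Without it, the log2 fold changes of *SUV39H1*, *EHMT2* and *CBX5* were -0.12, -0.070 and -0.048, below 0 in place of above, and that of *SETDB1* was -0.15. None of the 10 genes passed the threshold without it.

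The balance within each set of paralogues was compared as the share of the set's reads, which needs no scaling between libraries. *CBX3* held 79.9%, 75.9% and 83.0% of the HP1 reads with DMSO and 73.5%, 80.7% and 76.3% with EZH2i. The means were 79.6% ± 3.57 and 76.9% ± 3.64 (SD, n = 3 each), a difference of -2.74 percentage points against these SDs. Single libraries set its size: it was -4.68 without EZH2i replicate 2 and -4.59 without DMSO replicate 2, but -1.03 without DMSO replicate 3 and -1.07 without EZH2i replicate 1. The remainder was divided between *CBX5*, at 14.0% ± 2.15 and 16.5% ± 3.55, and *CBX1*, at 6.43% ± 1.46 and 6.66% ± 0.0976 (SD, n = 3 each). These are shares of uniquely counted reads and do not rank the transcripts by abundance.

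The methyltransferase pairs also kept overlapping shares. *SUV39H1* held 56.3% ± 4.57 of the reads of its pair with vehicle and 54.4% ± 7.44 with inhibitor, and *EHMT1* held 41.3% ± 3.35 and 42.0% ± 5.56 of those of its own (SD, n = 3 each). *SETDB1* held 85.0%, 88.9% and 90.0% of the reads of its pair in DMSO and 85.1%, 86.0% and 86.8% in EZH2i. Its EZH2i libraries all lay inside the DMSO range, and the difference of -2.02 percentage points compared with an SD of 2.63 in DMSO and 0.828 in EZH2i. With DMSO replicate 1 left out it came to -3.51, and with DMSO replicate 3 left out to -0.998. No test was made on these shares.

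**Figure D3:**
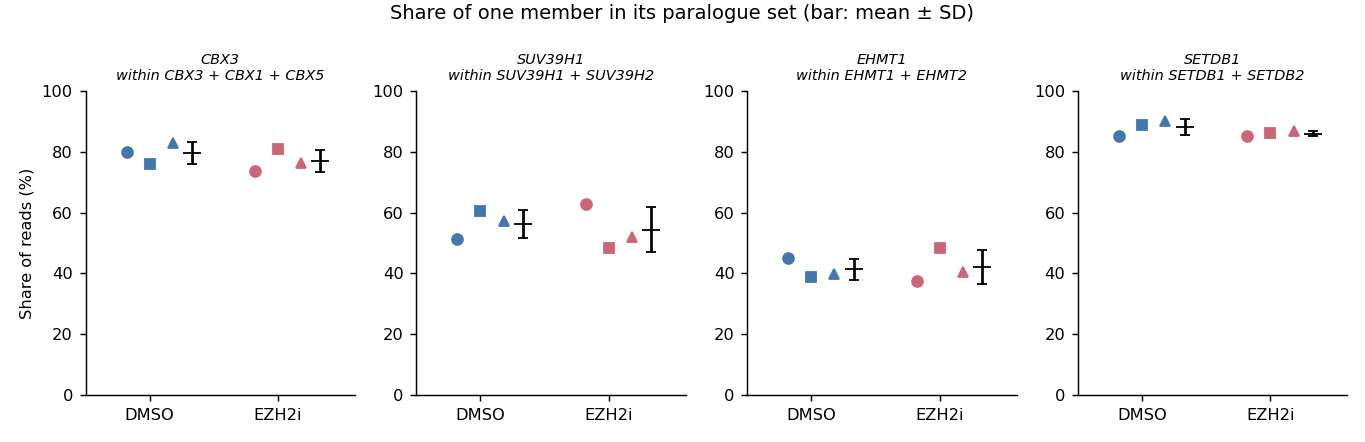
Share in percent (axes from 0 to 100) of *CBX3* in the reads of *CBX1*, *CBX3* and *CBX5*, and of *SUV39H1*, *EHMT1* and *SETDB1* in the reads of their pairs, for each library; symbols mark replicates 1, 2 and 3 and bars the mean ± SD. The ranges of the groups overlap in all 4 panels.

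HP1 genes have processed pseudogenes, transcript copies inserted elsewhere in the genome, and reads that matched more than 1 place were in no gene's count. By name, 10 copies of *CBX3*, 5 of *CBX1* and 1 of *CBX5* were among the counted genes. Their reads over the 6 libraries came to 165 against 47868 for *CBX3*, 5 against 3934 for *CBX1* and 4 against 9010 for *CBX5*. The copy with most reads was *CBX3P2*. With the reads of the copies added to their parents the difference in the *CBX3* share was -2.71 percentage points. Reads with more than 1 alignment made up 21.4% to 22.3% of the listed reads, and those that came from HP1 transcripts were not analysed here.

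Several of the 10 genes lie back to back with a gene that runs the other way. The pairs are *EHMT1* with *ARRDC1-AS1*, *SUV39H2* with *SUV39H2-DT*, *SETDB2* with *CAB39L*, *CBX5* with *HNRNPA1* and *CBX3* with *HNRNPA2B1*. The starts of their main GENCODE transcripts are 99 to 999 bases apart on GRCh38, and *TRIM28* has the small RNA pseudogene *RN7SL525P* within the same distance. The stretches that hold no annotated exon between the outermost starts are printed because the genes of a pair share them as upstream sequence. They are the longest exon-free runs in the 250 bases before the RefSeq start (GRCh38.p14), on the strand of the first-named gene, with each CpG in capitals. For *CBX3* no base of that window was free of an annotated exon.
SUV39H2 and SUV39H2-DT, chr10:14878728-14878819, plus strand: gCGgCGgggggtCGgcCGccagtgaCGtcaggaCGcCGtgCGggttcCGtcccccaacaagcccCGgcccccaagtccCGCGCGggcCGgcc
EHMT1 and ARRDC1-AS1, chr9:137618907-137618991, plus strand: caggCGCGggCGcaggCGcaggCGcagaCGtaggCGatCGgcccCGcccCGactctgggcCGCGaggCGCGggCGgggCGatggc
SETDB2 and CAB39L, chr13:49444065-49444273, plus strand: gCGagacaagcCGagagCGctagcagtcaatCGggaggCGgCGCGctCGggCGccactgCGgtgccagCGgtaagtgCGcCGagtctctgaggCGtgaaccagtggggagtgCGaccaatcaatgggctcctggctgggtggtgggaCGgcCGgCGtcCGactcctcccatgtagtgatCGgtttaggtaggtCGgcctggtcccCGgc
CBX5 and HNRNPA1, chr12:54280134-54280192, minus strand: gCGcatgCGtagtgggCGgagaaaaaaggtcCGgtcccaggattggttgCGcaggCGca

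All 4 stretches are rich in CpG, with 14 in 92 bases, 16 in 85, 22 in 209 and 6 in 59. The RefSeq promoter table used here was matched for 9 of the 10 genes, and that of *TRIM28* was not analysed here. For *CBX1* and *CBX3* the nearest RefSeq start lay 292 and 302 bases from the GENCODE one. The 250 bases before it, like those of *SUV39H1*, fell within the annotated span of the gene. In the 250 bases before the start nearest to the GENCODE one, all 9 had an observed over expected CpG ratio of at least 0.6, from 0.654 for *EHMT2* to 1.11 for *EHMT1*, and a GC content of 54.8% to 79.6%. Of all 35116 promoters in the table, 47.5% reached that ratio. This is a property of the sequence, and methylation of these bases was not analysed here.

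None of the 4 back-to-back genes that were tested passed the threshold. *HNRNPA1*, which encodes an RNA-binding protein of pre-mRNA processing, was at 452, 439 and 431 CPM in DMSO and 490, 444 and 464 in EZH2i (log2 fold change 0.081, edgeR adjusted p = 0.704). *HNRNPA2B1*, its relative beside *CBX3*, was at 865, 811 and 913 CPM in DMSO and 634, 906 and 876 in EZH2i, and like *CBX3* was lowest in EZH2i replicate 1 (log2 fold change -0.10, edgeR adjusted p = 0.718). Without that library the value was 0.049. Exons of both overlap over 368 bases on opposite strands. The other genes of these pairs had few reads: *CAB39L* had a log2 fold change of -0.012 on 337 reads (edgeR adjusted p = 0.986) and *ARRDC1-AS1* one of 0.57 on 147 reads (standard error 0.439, edgeR adjusted p = 0.516). The last ran from 0.25 without EZH2i replicate 2 to 1.03 without EZH2i replicate 1, the library with 7 of its reads, and was 0.23 with limma-voom. *SUV39H2-DT*, with 40 reads, and *RN7SL525P*, with 2, were below the filter.

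Of 47 further genes of H3K9 methylation and HP1, in 5 lists, 46 were tested, 1 was higher and 0 were lower in EZH2i by edgeR. All tested genes called higher made up 3.34%. The median log2 fold change of the 46 was -0.035, with 20 above 0 and 26 below. An unadjusted edgeR p under 0.05 was found for 8 of the 46, 2 higher and 6 lower, beside 19.1% of all tested genes. The genes named below for such a p are therefore no more than that share would give. The groups did not overlap for 11 of the 46, close to the 24.5% of all tested genes. By list these were 5 of 16 HP1 partners and readers, 5 of 10 in the TIF1 and SUMO list, 1 of 10 demethylases, 0 of 7 SETDB1 cofactors and HUSH genes and 0 of 3 cofactors of G9a and GLP. Only *CDYL2* was not tested, at 0 reads in every library.

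The gene that rose was *KMT5B* (ENSG00000110066; chromosome 11, 68154863 to 68213852), which encodes a histone H4 lysine 20 methyltransferase that HP1 brings to heterochromatin. It was at 61.9, 62.9 and 67.3 CPM in DMSO and 81.1, 85.1 and 86.5 in EZH2i, so that every EZH2i library was above every DMSO library. The mean rose to 84.3 ± 2.79 CPM from 64.0 ± 2.85 (SD, n = 3 each). On the log2 scale the fold change was 0.39 (standard error 0.103, 95% interval 0.18 to 0.61, edgeR adjusted p = 0.038). The call was close to the threshold: the adjusted p was 0.0522 with DESeq2 and 0.0692 in edgeR without a filter on low counts. Over the 6 edgeR fits that each left out a library the log2 fold change was 0.37 to 0.43 and the adjusted p 0.0206 to 0.149, past the threshold in 1 fit, the one without EZH2i replicate 1. Its paralogue *KMT5C*, named for that reason, had a log2 fold change of 0.020 (edgeR adjusted p = 0.959).

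**Figure D4:**
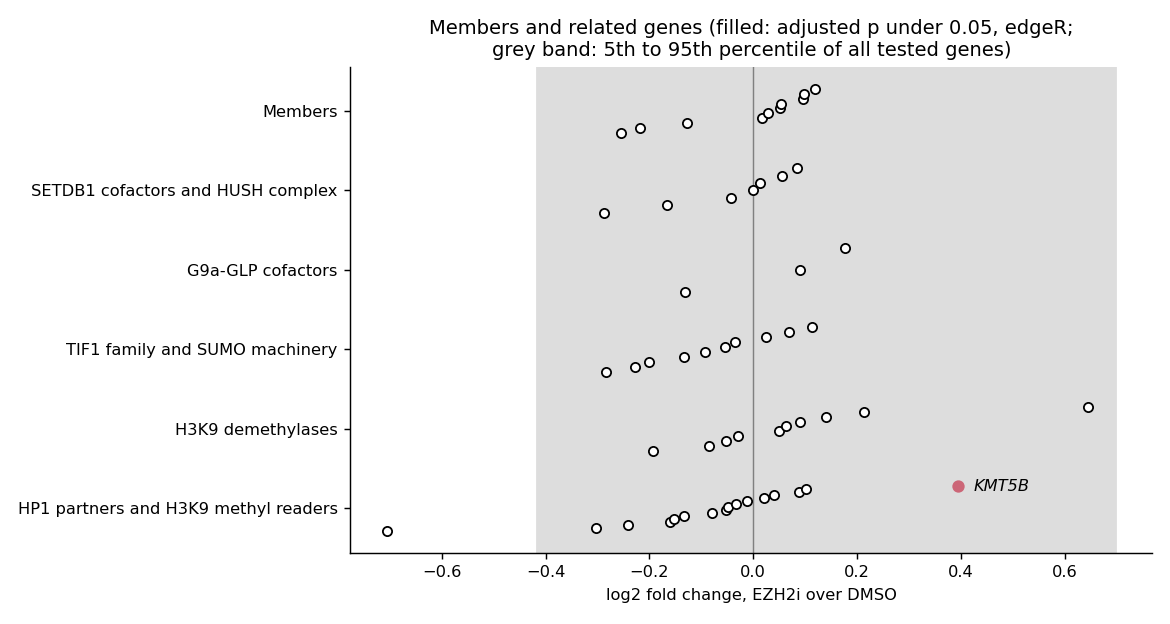
Log2 fold change of EZH2i over DMSO for the 10 genes and the 46 tested genes of the 5 related lists; filled points passed an adjusted p of 0.05 in edgeR's test and open points did not, and the grey band runs from the 5th to the 95th percentile of all tested genes (-0.42 to 0.70). *KMT5B* is the 1 filled point, and *UHRF1* at -0.71 is the 1 point outside the band.

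Among HP1 partners and readers of methylated H3K9, 15 of the 16 tested genes did not pass, with a median of -0.050. Those with an unadjusted p under 0.05 are named here after their values were seen. *CHAF1A* and *CHAF1B*, the large and middle subunits of the histone chaperone CAF-1, which deposits histones behind the replication fork, had log2 fold changes of -0.24 and -0.30 (edgeR adjusted p = 0.227 and 0.176), and that of *CHAF1A* was -0.15 without EZH2i replicate 3. Both were among the genes whose groups did not overlap, with *CHAF1B* at 46.3, 46.2 and 40.7 CPM in DMSO and 37.2, 32.4 and 38.2 in EZH2i. Exons of *UBXN6* on the opposite strand overlap *CHAF1A*, and exons of *MORC3* on the same strand overlap *CHAF1B*. *UHRF1*, which reads methylated H3K9 together with hemimethylated DNA, was at 4.06 to 10.2 CPM on 30 to 65 reads per library (log2 fold change -0.71, 95% interval -1.23 to -0.18, edgeR adjusted p = 0.122).

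SETDB1 recruitment by TRIM28 depends on the attachment of SUMO. In the list of the TIF1 family and the SUMO machinery, 0 of 10 genes passed (median -0.074). *SAE1* and *UBA2*, which together form the SUMO-activating enzyme, were both lower in every EZH2i library than in any DMSO library. *SAE1* was at 335, 312 and 347 CPM in DMSO and 272, 283 and 262 in EZH2i (log2 fold change -0.28, 95% interval -0.49 to -0.077, edgeR adjusted p = 0.113), and *UBA2* had a log2 fold change of -0.23 (edgeR adjusted p = 0.235). *SUMO3* had one of -0.20 (edgeR adjusted p = 0.288). *UBA2* was named after its values were seen. Of the genes of this list whose groups did not overlap, *TRIM24*, likewise named afterwards, was the 1 with a higher level in EZH2i.

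Of the SETDB1 cofactors and the HUSH complex, which holds H3K9me3 over transposons and other intron-poor transcripts, 0 of 7 genes passed (median 0.00037). *ATF7IP2* and *MPHOSPH8*, the most abundant by reads, had log2 fold changes of -0.042 and -0.17 (edgeR adjusted p = 0.882 and 0.459), and the former was above 0 without DMSO replicate 3 or EZH2i replicate 1. *ATF7IP*, the partner that stabilizes SETDB1 in the nucleus and also named after its values were seen, was at 54.6, 52.8 and 56.2 CPM in DMSO and 38.9, 40.9 and 54.4 in EZH2i. EZH2i replicate 3 was within the DMSO range and the other EZH2i libraries below it, and the log2 fold change of -0.29 did not pass (95% interval -0.56 to -0.011, edgeR adjusted p = 0.241). Across the fits without 1 library it ran from -0.45 (without EZH2i replicate 3, edgeR adjusted p = 0.0701) to -0.20 (without EZH2i replicate 1, edgeR adjusted p = 0.428).

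Among the cofactors of G9a and GLP, 0 of the 3 tested genes passed, and the zinc finger gene *ZNF644* and the chromodomain gene *CDYL* had log2 fold changes of 0.090 and 0.18 (edgeR adjusted p = 0.735 and 0.408), which were -0.022 and 0.084 without EZH2i replicate 2. Of the H3K9 demethylases, which remove the mark, 0 of 10 passed (median 0.057). The JmjC demethylase genes *KDM4A* and *KDM4B* had log2 fold changes of -0.029 and 0.050 (edgeR adjusted p = 0.922 and 0.856), and both turned direction on leaving out 1 library. Exons of *KDM4A-AS1* on the opposite strand overlap *KDM4A*. Their relative *KDM4C*, named after its values were seen, had the largest value of the list, 0.64, on 32 to 64 reads per library (95% interval 0.099 to 1.19, edgeR adjusted p = 0.173), and exons of an unnamed gene on its strand overlap it.

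**Figure D5:**
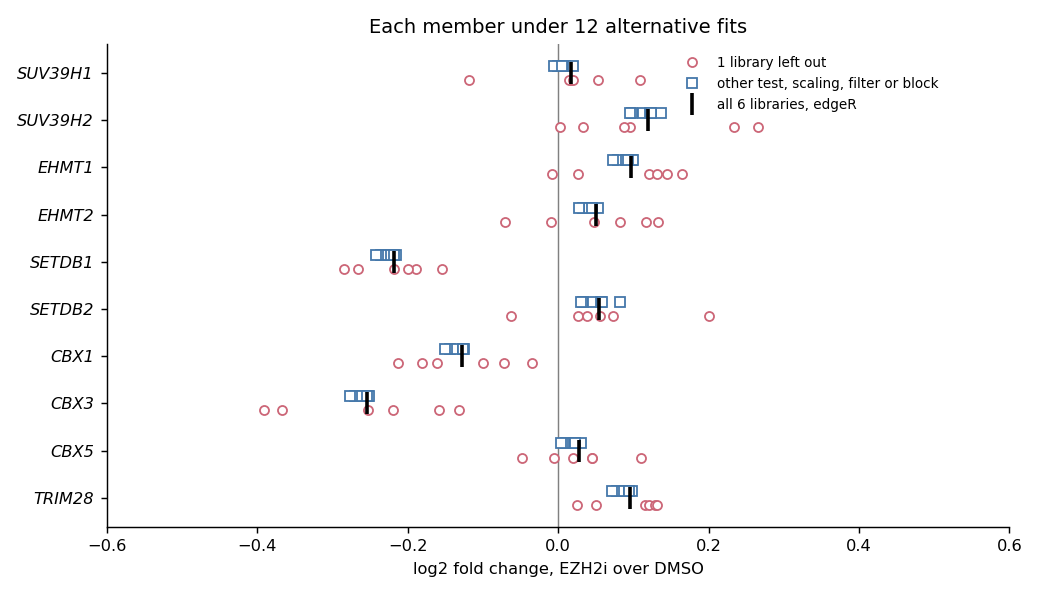
Log2 fold change of EZH2i over DMSO for each of the 10 genes from the 6 libraries with edgeR (black tick), from 6 fits that each left out 1 library (circles) and from 6 with another test, scaling, filter or a replicate block (squares). *SETDB1*, *CBX1* and *CBX3* lie below 0 in every fit, *SUV39H2* and *TRIM28* lie above 0 in every fit, and circles or squares of the other 5 genes fall on both sides.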

How the data were processed

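The authors prepared QuantSeq 3′ mRNA-Seq FWD libraries, processed the reads with the pipeline recommended for the kit on hg38 (STAR 2.6.0c and HTSeq 0.11.2 in the submitters' processing notes) and deposited raw read counts per Ensembl gene for each of 6 libraries, without pooling. The annotation was an Ensembl release for GRCh38, per the study's data statement, and the strand setting of the counting is not given in the sources used here. A deposited table of the authors' own DESeq2 comparison (log2 fold changes, p-values) was not used. The 5 summary rows of each count file, holding 32.1% to 36.4% of the listed reads, were left out.

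The test was that of edgeR 4.0.16 under R 4.3.3 (TMM, filterByExpr with a minimum count of 10, glmQLFit with default options, glmQLFTest, two-sided, Benjamini-Hochberg adjustment over 12364 genes, threshold 0.05). The standard error is the log2 fold change over the square root of F, and 95% intervals use the t quantile of the fit. DESeq2 1.42.0, limma 3.58.1 (voom), RLE size factors, other filters, a replicate block and leaving out each library were alternatives. The fit was checked on simulated data with 200 changed genes and the same dispersion (spread beyond counting error) for every gene. That check could not show how the fit handles dispersions that differ between genes or a library that stands apart. With 3 libraries against 3, the smallest p of an exact permutation test is 0.1, so calls rest on the fit across all genes. Cultures were treated in triplicate. The p-values weigh the group difference against the spread between these samples, estimated with the help of all genes. Names, exons and positions come from GENCODE version 44 (60401 identifiers matched) and promoters from RefSeq.

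The members and lists were chosen with earlier results of these data known. Named were all members, back-to-back genes, the pseudogene copy with most reads and, per list, genes past the threshold or otherwise the 2 with the highest mean CPM. Genes whose exons overlap those of a named gene, *KMT5C* and genes marked so in the text were named outside this rule, after values were seen.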

Additional observations from a re-analysis of the deposited data

How the results depend on the processing

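Of the 10 members, 0 were called under each of the 12 alternatives, and the lowest adjusted p in these 120 fits was 0.133, for *CBX3* in edgeR without a filter on low counts. The direction of 9 fits turned, all for members with a log2 fold change near 0. For *SUV39H1* it was -0.00032 with DESeq2 and -0.0061 without a filter, and across the fits without 1 library it ran from -0.12 to 0.11. Across those fits it ran from -0.0077 to 0.16 for *EHMT1*, from -0.070 to 0.13 for *EHMT2*, from -0.063 to 0.20 for *SETDB2* and from -0.048 to 0.11 for *CBX5*. Without a turn in direction it ran from 0.0019 (without DMSO replicate 2) to 0.27 (without DMSO replicate 1) for *SUV39H2*, from -0.21 (without EZH2i replicate 2) to -0.035 (without DMSO replicate 2) for *CBX1* and from 0.024 (without EZH2i replicate 3) to 0.13 for *TRIM28*. Among the other genes printed with a fold change, direction turned for 7, 6 of them only on leaving out 1 library. Those fits gave -0.11 to 0.048 for *ATF7IP2*, -0.022 to 0.18 for *ZNF644*, -0.13 to 0.028 for *KDM4A*, -0.037 to 0.12 for *KDM4B*, -0.19 to 0.049 for *HNRNPA2B1*, -0.20 to 0.19 for *CAB39L* and -0.11 to 0.15 for *KMT5C*, which was also -0.0027 without a filter. Direction held but size moved by over 1.5 times for *MPHOSPH8* (-0.24 to -0.077, the latter without EZH2i replicate 2), *CDYL* (0.084 without EZH2i replicate 2 to 0.23), *SUMO3* (-0.26 to -0.13, the latter without DMSO replicate 3), *CERS2* (-0.39 to -0.17, the latter without EZH2i replicate 2), *DCLRE1C* (0.030 without DMSO replicate 3 to 0.15), *TRIM24* (0.055 without DMSO replicate 2 to 0.15) and *HNRNPA1* (0.046 without EZH2i replicate 1 to 0.11). Over all genes, 928 were called without a filter in place of 527, and 209 to 536 across the fits without 1 library, the lowest counts coming without a DMSO library (213, 209 and 240 without replicates 1, 2 and 3). Of the related lists, 1 gene was called, and 0 were with DESeq2, without a filter and with the replicate block, and 0 to 1 across the fits without 1 library. Libraries with the same replicate number were not paired, as their deviations from the group means correlated at -0.0511, -0.0175 and -0.017. With the replicate block 599 genes were called, 0 of them members, and *KMT5B* had an adjusted p of 0.0584 (edgeR). The differences in the 4 plotted paralogue shares moved by less than the pooled SD between replicates, but without 1 library that of *SUV39H1* ran from -6.09 to 1.06 and that of *EHMT1* from -2.31 to 3.11 percentage points. The cause of these shifts was not tested.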
